A study of Mus musculus with 8 samples.

Results

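The HoxA cluster was followed through its 9 genes from Hoxa2 to Hoxa11 (Hoxa2, Hoxa3, Hoxa4, Hoxa5, Hoxa6, Hoxa7, Hoxa9, Hoxa10 and Hoxa11), which were picked by gene symbol from the 24421 genes counted in every library. R1 mouse embryonic stem cells (ESCs), a single pluripotent line, were profiled in 2 states with Oxford Nanopore Technologies (ONT) sequencing of polyadenylated RNA. Undiff cells had received no retinoic acid (RA). Day4 cells had formed embryoid bodies over 4 days without leukaemia inhibitory factor (LIF) and were then exposed to RA, the vitamin A derivative that activates nuclear RA receptors, for 4 days. The dose is 2 µM in the design text and the methods, and 2 mM in the treatment label. The sources also differ on the Undiff culture, which is given as ESCs kept in LIF or as embryoid bodies after 4 days, before RA, so whether the comparison of states also spans LIF removal and embryoid body formation cannot be told. No genetic change is named for either state, and the 2 replicates of each state were cultures grown and treated separately. Each state was sequenced with the ONT Direct RNA platform, in which the native RNA strand passes through the pore (500 ng input), and the ONT cDNA platform, in which the RNA is copied and amplified by PCR (50 ng input), giving 8 libraries in 4 groups of 2.

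Hox genes encode homeodomain transcription factors that give cells their position along the head-to-tail axis of the embryo. They lie in 4 clusters, HoxA to HoxD, and genes at the same place in different clusters are paralogues that share a number. Genes near the 3' end of a cluster, such as Hoxa2, are in general switched on earlier and farther towards the head than those near the 5' end, such as Hoxa11. RA is a classical inducer of the 3' genes, Polycomb proteins keep the clusters silent in ESCs, and Meis and Pbx proteins bind DNA together with Hox proteins.

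All 9 genes lie on the minus strand of chromosome 6 of GRCm38, the assembly that mm10 also names, in GENCODE vM21. Hoxa2 spans chr6:52162417-52164831 and Hoxa11 spans chr6:52242106-52245810, with a distance of 81 kb between their start sites. The genes are compact, with longest transcripts of 874 (Hoxa6) to 3226 bases (Hoxa9), and 7 of the 9 have a longest transcript of 2 exons. The exception in length is Hoxa3, whose longest gene model (chr6:52169062-52213336) starts upstream of Hoxa6 and carries Hoxa4, Hoxa5 and Hoxa6 within its span. Hoxa5 (chr6:52201754-52204587), Hoxa6 and Hoxa10 share no exon sequence with another gene. On the same strand, exons of Hoxa2 and Hoxa3 overlap Gm28308 and those of Hoxa9 overlap Mir196b. On the opposite strand, the exons of Hoxa3 overlap the RNAs Hoxaas2, Hoxaas3, Gm29430 and 5730596B20Rik, and those of Hoxa4 overlap Gm29430. The exons of Hoxa7 (chr6:52214491-52221854) overlap Hoxaas3 and those of Hoxa11 overlap Hoxa11os, both on the opposite strand. Gm29430 and 5730596B20Rik are not among the genes counted. Direct RNA reads were counted by strand, whereas the counting of cDNA reads was not stated to use it, so in cDNA the reads of these genes and of their antisense partners cannot be told apart.

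The sequence before the start site was available from RefSeq (GRCm38.p6) for 8 of the 9 genes, as 9 promoters because Hoxa10 has a pair of start sites. The 250 bases before the start are shown for genes that the results turn on. Hoxa2 was called higher at Day4 on both platforms, Hoxa5 differed most in favour of Direct RNA, Hoxa7 differed most in favour of cDNA, and Hoxa10 was called only in cDNA. Capitals mark CCAAT boxes, the site of the NF-Y factor, and the motif TGATNNAT of Hox and Pbx dimers, both searched on both strands.
Hoxa2 (chr6:52164832-52165081, minus strand): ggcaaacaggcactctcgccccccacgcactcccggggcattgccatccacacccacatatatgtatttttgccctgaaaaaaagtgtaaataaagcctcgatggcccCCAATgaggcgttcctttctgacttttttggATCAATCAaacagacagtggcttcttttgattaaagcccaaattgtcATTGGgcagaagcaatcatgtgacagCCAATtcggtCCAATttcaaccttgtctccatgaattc
Hoxa5 (chr6:52204588-52204837, minus strand): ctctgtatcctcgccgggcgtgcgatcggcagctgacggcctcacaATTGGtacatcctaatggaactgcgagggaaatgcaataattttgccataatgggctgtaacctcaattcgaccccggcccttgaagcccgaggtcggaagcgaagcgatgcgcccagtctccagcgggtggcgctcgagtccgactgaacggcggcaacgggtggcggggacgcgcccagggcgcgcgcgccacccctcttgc
Hoxa7 (chr6:52218574-52218823, minus strand): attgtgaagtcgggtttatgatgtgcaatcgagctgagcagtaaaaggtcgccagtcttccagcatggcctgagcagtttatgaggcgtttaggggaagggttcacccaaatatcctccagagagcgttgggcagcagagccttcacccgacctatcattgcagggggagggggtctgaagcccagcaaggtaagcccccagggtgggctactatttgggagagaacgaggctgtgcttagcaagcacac
Hoxa10, the start nearer to Hoxa9 (chr6:52234940-52235189, minus strand): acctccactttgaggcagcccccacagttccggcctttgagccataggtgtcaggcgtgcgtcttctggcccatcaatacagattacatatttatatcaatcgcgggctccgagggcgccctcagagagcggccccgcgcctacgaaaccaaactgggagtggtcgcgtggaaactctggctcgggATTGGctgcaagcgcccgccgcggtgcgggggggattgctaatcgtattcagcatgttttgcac
The Hoxa2 promoter held 4 CCAAT boxes and 1 match to TGATNNAT, and CCAAT was found in 4 of the 9 HoxA promoters (Hoxa2, Hoxa5, Hoxa6 and 1 of the Hoxa10 promoters) against 33.8% of all 32851 promoters. TGATNNAT was found in 1 of the 9, against 7.68% of all. The half-site AGGTCA of RA receptors was found in 0 of the 9 and in 14% of all promoters, and a direct repeat of this half-site with a gap of 2 or of 5 bases in 0 of the 9 and, for each gap, in 0.00913% of all. The letters TTTATNG, bound by Cdx factors, were in 0 of the 9 (9.81% of all) and TATAAA was in 1, that of Hoxa10 shown here (12.4% of all). The median GC content was 54.8% in the HoxA promoters and 52.4% in all, with a median of 13 and 6 CpG sites. A match describes these letters in this window and no more.

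In Undiff the cluster was almost silent, and at Day4 it gave at least 177 reads per library. Values are given as reads and as CPM, reads per 1e6 reads on genes, where 3 reads, taken as the detection floor, correspond to 1.44 to 10.6 CPM. The 4 Direct RNA libraries held 283461 to 907489 reads on genes, and the 4 cDNA libraries were deeper, with 948657 to 2088592. Summed over the 9 genes, Direct RNA held 2 and 0 reads in the Undiff replicates and 177 and 731 reads in the Day4 replicates. In cDNA the sums were 1 and 6 reads in Undiff and 284 and 474 reads in Day4. The summed level at Day4 was thus 624 CPM (95% Wilson interval 539 to 723) and 991 CPM (922 to 1066) in Direct RNA, and 215 CPM (192 to 242) and 228 CPM (209 to 250) in cDNA. Every Day4 library was above every Undiff library of its platform, in which the sum reached at most 5.74 CPM (Direct RNA) and 2.87 CPM (cDNA). Because these are bulk libraries, fewer cells that express a gene and less RNA per cell cannot be told apart.

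**Figure D1:**
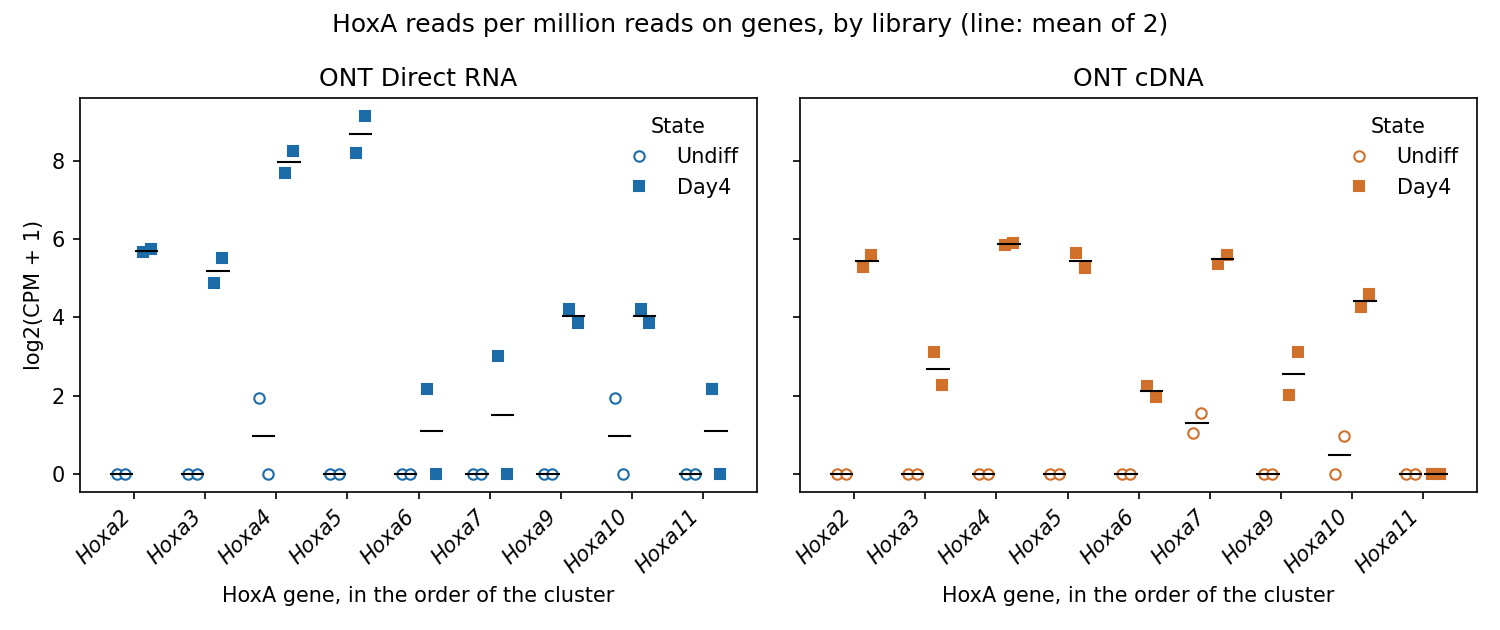
Level of each HoxA gene as log2(CPM + 1) in the 8 libraries, with genes in the order of the cluster from Hoxa2 (3' end) to Hoxa11 (5' end). Open circles are Undiff, filled squares are Day4 and the short line is the mean of 2 replicates. Hoxa4 and Hoxa5 stand highest in Direct RNA, at 205 to 563 CPM, and Hoxa7 stands at 40.2 and 47.2 CPM in cDNA but at 7.06 and 0 CPM in Direct RNA.

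At the 3' end, Hoxa2 and Hoxa3 had 0 reads in all 4 Undiff libraries. Hoxa2, which patterns the hindbrain and the second branchial arch, had 14 and 39 reads in the Direct RNA Day4 replicates (49.4 and 52.9 CPM) and 50 and 98 reads in those of cDNA (37.9 and 47.2 CPM). Its levels on the platforms were close, with all 4 Day4 libraries between 37.9 and 52.9 CPM. Hoxa3, needed for thymus and parathyroid formation, had 8 and 33 reads in Direct RNA (28.2 and 44.7 CPM) and 10 and 8 reads in cDNA (7.59 and 3.85 CPM). For Hoxa3, therefore, both Direct RNA values lay above both cDNA values at Day4, and how many of all genes did so was not counted.

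In the middle of the cluster, Hoxa4 and Hoxa5 carried most of the Direct RNA signal. Hoxa4 had 1 and 0 reads in Direct RNA Undiff, 58 and 224 reads in Direct RNA Day4 (205 and 304 CPM), 0 reads in both cDNA Undiff libraries, and 74 and 122 reads in cDNA Day4 (56.1 and 58.7 CPM). Hoxa5, known for its part in lung and axial skeleton development, had 0 reads in all 4 Undiff libraries, 83 and 415 reads in Direct RNA Day4 (293 and 563 CPM) and 64 and 78 reads in cDNA Day4 (48.6 and 37.5 CPM). For both genes the Direct RNA Day4 values lay above the cDNA ones and the groups did not overlap. On this scale, set by library totals, the median log2 fold change of all genes, cDNA minus Direct RNA, was also negative, at -0.65.

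The next pair of genes had few reads in Direct RNA. Hoxa6 had 1 and 0 reads in Direct RNA Day4, 5 and 6 reads in cDNA Day4 (3.79 and 2.89 CPM) and 0 reads in all 4 Undiff libraries. Hoxa7 had 2 and 0 reads in Direct RNA Day4 and 0 reads in both Direct RNA Undiff libraries, but in cDNA it had 1 and 4 reads in Undiff and 53 and 98 reads in Day4 (40.2 and 47.2 CPM). Hoxa7 was therefore almost absent from the Direct RNA reads while its cDNA level was close to that of Hoxa2, and a level of 40.2 CPM is above the 3-read level of 10.6 and 4.07 CPM of the Direct RNA Day4 libraries.

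At the 5' end, Hoxa9 and Hoxa10 had reads in every Day4 library and Hoxa11 had almost none. Hoxa9, a regulator of blood stem cells, had 0 reads in all 4 Undiff libraries, 5 and 10 reads in Direct RNA Day4 (17.6 and 13.6 CPM) and 4 and 16 reads in cDNA Day4 (3.03 and 7.7 CPM). Hoxa10, which acts in the uterus and the posterior skeleton, had 1 and 0 reads in Direct RNA Undiff, 5 and 10 reads in Direct RNA Day4 (17.6 and 13.6 CPM), 0 and 2 reads in cDNA Undiff, and 24 and 48 reads in cDNA Day4 (18.2 and 23.1 CPM). Both genes were higher in each Day4 library than in each Undiff library of the same platform. Hoxa11, needed for kidney and limb development, had 1 read in 1 Direct RNA Day4 library and 0 reads in the other 7 libraries, and the 0 reads in cDNA Day4 allow a level of up to 2.28 and 1.44 CPM. Hoxa11os, which overlaps it on the opposite strand, had 5 and 7 reads in cDNA Day4 and 0 reads in Direct RNA Day4. This bound for Hoxa11 therefore holds only for reads counted on Hoxa11 itself.

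The first comparison asks which HoxA genes changed with differentiation, and it was made on each platform with DESeq2. The call required a Benjamini-Hochberg adjusted p no higher than 0.05, a change of 1 log2 unit or more and a mean normalised count of 5 or more. In Direct RNA, 4 of the 9 genes rose at Day4 (Hoxa2, Hoxa3, Hoxa4 and Hoxa5) and 0 fell, where 9.54% of all genes with that mean count were called higher and 7.67% lower. In cDNA, 5 of the 9 rose (Hoxa2, Hoxa4, Hoxa5, Hoxa7 and Hoxa10) and 0 fell, where 8.69% of all were called higher and 9.24% lower. Hoxa2, Hoxa4 and Hoxa5 were thus called higher on both platforms. With the replicate number as a block only Hoxa2 of them stayed called on both, though libraries of different states share only that number. The same 4 and 5 genes were called with edgeR, where edgeR called 18.7% of all genes higher for Direct RNA and 17.1% for cDNA. Further members missed the edgeR call only by their mean count. These were Hoxa9 (edgeR adjusted p = 0.0019) and Hoxa10 (0.013) in Direct RNA, and Hoxa3 (0.0034), Hoxa9 (0.0032) and Hoxa6 (0.048) in cDNA. Only 4 genes in Direct RNA and 5 in cDNA reached the mean count of 5, all through their Day4 reads, so that all of them being called is no evidence about the cluster. Over all members fitted, whatever their count, the median log2 fold change was 3.56 in Direct RNA (9 genes) and 4.07 in cDNA (8 genes). Most of these genes had 0 Undiff reads and entered the fit through their Day4 reads alone. A median above 0 was therefore given in advance and is no evidence about the cluster either.

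**Figure D2:**
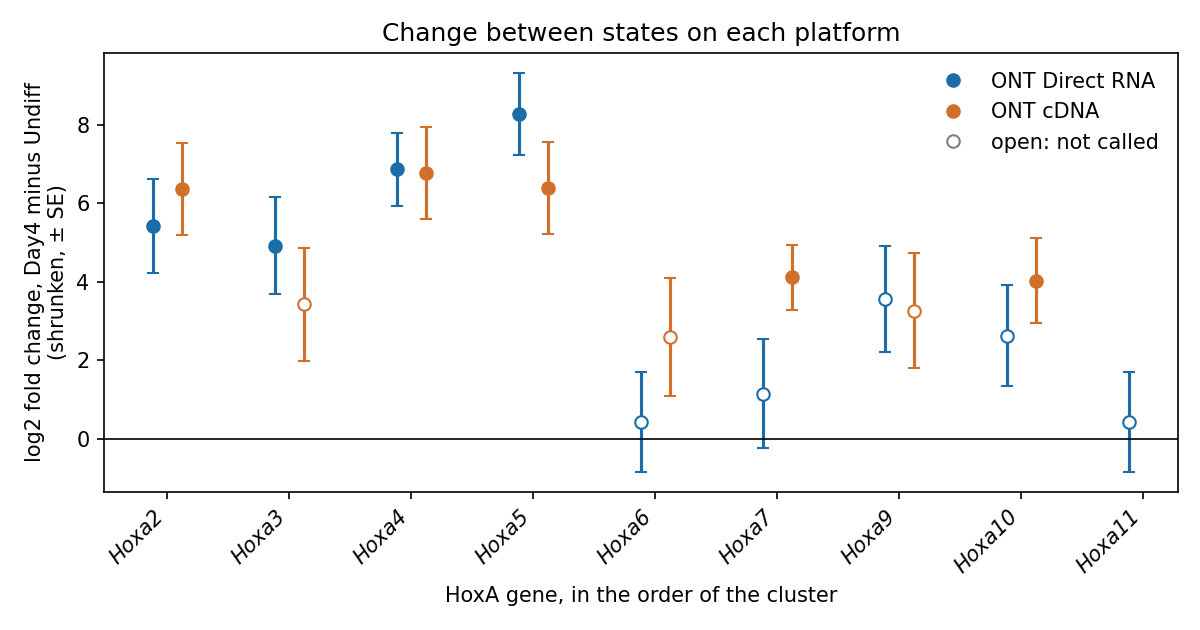
Shrunken log2 fold change between Day4 and Undiff (± SE) of each HoxA gene in ONT Direct RNA (blue) and ONT cDNA (orange), in cluster order. Filled points passed the call and open points did not, and Hoxa11 has no cDNA point because it had 0 reads. The called genes run from Hoxa2 to Hoxa5 in Direct RNA, at 4.92 to 8.28, and in cDNA they are Hoxa2, Hoxa4, Hoxa5, Hoxa7 and Hoxa10, at 4.03 to 6.77.

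In Direct RNA the largest change was that of Hoxa5, with a log2 fold change of 8.28 (SE 1.04, DESeq2 adjusted p = 4.9e-13). Against the 3-read level of the Undiff group, Hoxa5 was at least 71-fold higher at Day4. Hoxa4 followed with 6.87 (SE 0.93, DESeq2 adjusted p = 2.1e-11). Hoxa2 changed by 5.42 (SE 1.20, DESeq2 adjusted p = 0.00017), at least 8.5-fold, and Hoxa3 by 4.92 (SE 1.24, DESeq2 adjusted p = 0.0015), at least 6.1-fold. These folds are bounds because the genes had 0 Undiff reads, whereas the fitted values of such genes depend on the shrinkage. The 5 genes upstream of Hoxa5 did not pass. Hoxa9 had a log2 fold change of 3.56 (SE 1.36, DESeq2 adjusted p = 0.071) and Hoxa10 of 2.62 (SE 1.29, DESeq2 adjusted p = 0.22), both with a mean count under 5, and Hoxa6, Hoxa7 and Hoxa11 had at most 2 reads at Day4. The calls of Hoxa2 (DESeq2 adjusted p = 0.105) and Hoxa3 (0.236) were lost without Undiff replicate 2, and that of Hoxa3 (0.253) also without Day4 replicate 2.

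In cDNA the fitted changes of Hoxa4, Hoxa5 and Hoxa2 were near each other. The log2 fold change of Hoxa4 was 6.77 (SE 1.16, DESeq2 adjusted p = 3.4e-07), that of Hoxa5 was 6.39 (SE 1.18, DESeq2 adjusted p = 3.5e-06) and that of Hoxa2 was 6.36 (SE 1.18, DESeq2 adjusted p = 3.8e-06). As all 3 had 0 Undiff reads, the folds are given as at least 24-fold for Hoxa4 and at least 18-fold for Hoxa5 and for Hoxa2. Hoxa7 and Hoxa10 had a few Undiff reads, so their ratios can be given. Hoxa7 changed by 4.11 (SE 0.83, DESeq2 adjusted p = 2.7e-05), and its pooled reads were 27-fold higher at Day4 (95% counting interval 11.3 to 84.4). Hoxa10 changed by 4.03 (SE 1.08, DESeq2 adjusted p = 0.0032), with a ratio of 32.2 (8.6 to 271). The ratio of Hoxa10 rests on 2 Undiff reads, both in replicate 2, and was 43.1 as a ratio of the group means. Hoxa3 (3.43, SE 1.44, DESeq2 adjusted p = 0.11), Hoxa9 (3.26, SE 1.46, DESeq2 adjusted p = 0.15) and Hoxa6 (2.59, SE 1.51, DESeq2 adjusted p = 0.34) did not pass, and each had 0 reads in Undiff and a mean count under 5. The call of Hoxa10 was lost without Undiff replicate 2 (DESeq2 adjusted p = 0.079), Day4 replicate 1 (0.116) or Day4 replicate 2 (0.234). With library totals as size factors the median change of all genes moved from 0.00 to 0.33 in cDNA and the calls from 893 higher and 949 lower to 1263 and 655, while the same 5 HoxA genes stayed called higher.

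To compare levels between genes, CPM was divided by the length of the longest transcript in kb. In Direct RNA Day4 the order of CPM per kb was Hoxa5 (228 ± 102, SD, n = 2), Hoxa4 (159 ± 44), Hoxa2 (28.8 ± 1.39), Hoxa3 (14.1 ± 4.51), Hoxa10 (6.08 ± 1.13), Hoxa9 (4.84 ± 0.895), Hoxa6 (2.02 ± 2.85), Hoxa7 (1.74 ± 2.46) and Hoxa11 (0.771 ± 1.09). The ranges of Hoxa5 and Hoxa4 overlapped, as did those of Hoxa10 and Hoxa9 and those of the last 3 genes, and the other neighbours in this order did not overlap. In cDNA Day4 the order was Hoxa4 (36 ± 1.15, SD, n = 2), Hoxa2 (24 ± 3.68), Hoxa5 (22.9 ± 4.15), Hoxa7 (21.5 ± 2.43), Hoxa10 (8.05 ± 1.35), Hoxa6 (3.82 ± 0.732), Hoxa3 (2.21 ± 1.02), Hoxa9 (1.66 ± 1.02) and Hoxa11 (0). Here Hoxa2, Hoxa5 and Hoxa7 could not be told apart by their ranges, nor could Hoxa3 and Hoxa9. A read may stand for a whole molecule whatever its length, and without the division by length Hoxa6 (2.89 and 3.79 CPM) lay below Hoxa3 (3.85 and 7.59 CPM) in cDNA, the reverse of the order per kb, and Hoxa7 (43.7 CPM) was next after Hoxa4 (57.4 CPM), though its range overlapped those of Hoxa5 and Hoxa2. On both platforms the genes of highest level lay in the 3' and middle part of the cluster and Hoxa11 was last, but the level did not fall gene by gene from 3' to 5', since Hoxa3 was below its neighbours Hoxa2 and Hoxa4 and, in cDNA, Hoxa6 was below Hoxa5 and Hoxa7.

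The second comparison asks how the platforms differ in the level of these genes in the same state, and it was made on the 4 Day4 libraries, since Undiff held at most 6 HoxA reads per library. At Day4, 1 of the 9 genes was higher in cDNA (Hoxa7) and 2 were lower (Hoxa4 and Hoxa5), where DESeq2 called 18.2% of all genes with a mean count of at least 5 higher in cDNA and 13.8% lower. Hoxa7 had a log2 fold change, cDNA minus Direct RNA, of 4.18 (SE 0.88, DESeq2 adjusted p = 3.9e-05). Hoxa5 had one of -2.46 (SE 0.48, DESeq2 adjusted p = 7.4e-06) and Hoxa4 of -1.36 (SE 0.45, DESeq2 adjusted p = 0.016). On the CPM scale, pooled reads of Hoxa7 were 22.7-fold higher in cDNA (95% counting interval 6.18 to 189), those of Hoxa5 were 11.7-fold higher in Direct RNA (9.66 to 14.2) and those of Hoxa4 were 4.78-fold higher in Direct RNA (3.97 to 5.77). The ratio of Hoxa7 rests on 2 Direct RNA reads, both in replicate 1, and was 12.4 as a ratio of the group means.

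These counts are near the shares over all genes and are no result about the cluster. Hoxa3 had a log2 fold change of -1.73 (SE 0.78, DESeq2 adjusted p = 0.10), which passed with edgeR (-2.05, edgeR adjusted p = 0.0013), so that edgeR called 1 gene higher and 3 lower, where it called 25.8% of all genes higher and 23.7% lower. Hoxa2 (0.45, SE 0.55, DESeq2 adjusted p = 0.72), Hoxa10 (1.07, SE 0.74, 0.37), Hoxa9 (-0.66, SE 0.92, 0.79), Hoxa6 (1.19, SE 1.24, 0.64) and Hoxa11 (-0.61, SE 1.08, 0.86) did not pass. For Hoxa2 the pooled CPM ratio of Direct RNA to cDNA was 1.19, with a counting interval of 0.853 to 1.64. The scale matters for these values. With library totals in place of DESeq2's size factors the median of all genes moved from 0.07 to -0.65 and the calls from 1889 higher and 1431 lower to 854 and 2727. Hoxa7 then stayed higher and Hoxa4 and Hoxa5 lower, Hoxa3 was called lower (-2.49, DESeq2 adjusted p = 0.00825), and the value of Hoxa2 turned to -0.26.

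**Figure D3:**
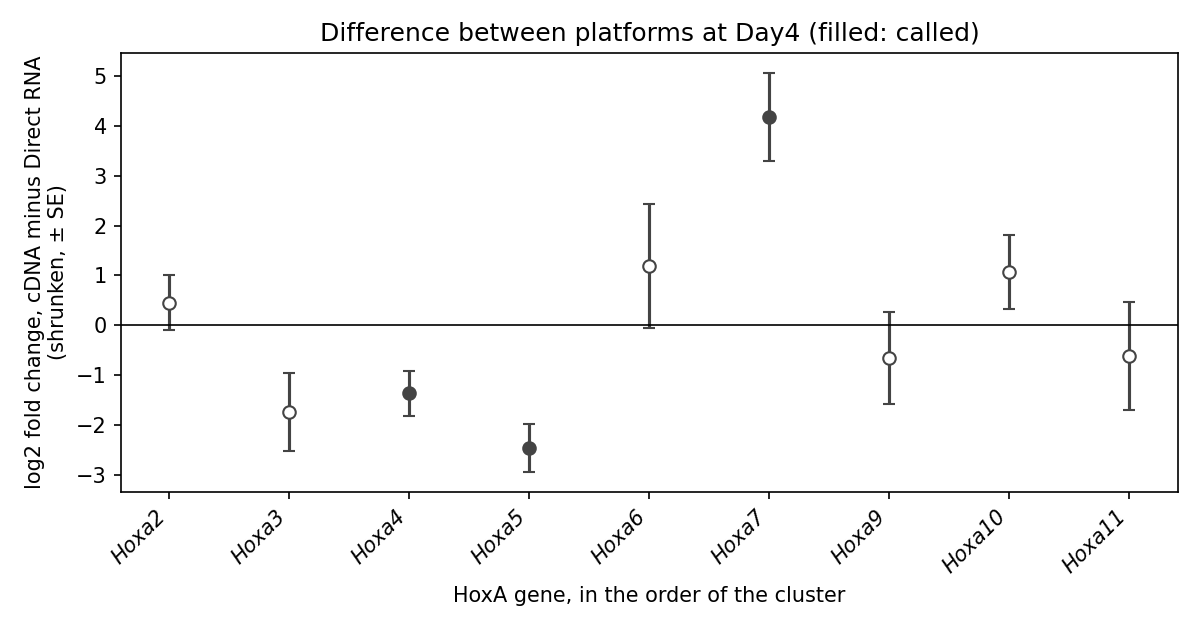
Shrunken log2 fold change between cDNA and Direct RNA (± SE) of each HoxA gene in the 4 Day4 libraries, in cluster order, with values above 0 higher in cDNA. Filled points passed the call. Hoxa4 (-1.36) and Hoxa5 (-2.46) lie below 0 and Hoxa7 (4.18) above it.

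Same-numbered libraries of the platforms may come from the same culture, which the sources do not state outright, and with the replicate number as a block Hoxa5 and Hoxa7 stayed called while Hoxa4 did not (-1.31, DESeq2 adjusted p = 0.0827). The calls rested on few libraries. Without Direct RNA Day4 replicate 2 none of the 3 genes passed (DESeq2 adjusted p = 0.063 for Hoxa5, 0.0516 for Hoxa7 and 0.505 for Hoxa4, with the log2 fold change of Hoxa7 at 2.80), and without cDNA replicate 1 or replicate 2 only Hoxa5 passed (Hoxa7 0.649 and 0.608, at log2 fold changes of 1.58 and 1.66, and Hoxa4 0.171 and 0.334). Beside these differences, reads that htseq-count left as ambiguous between genes came to 2.16% to 2.33% of the reads on genes and ambiguous reads in Direct RNA and to 7.65% to 8.45% in cDNA. The antisense RNA Hoxaas3, which overlaps Hoxa7, had 1 and 8 reads in Direct RNA Day4 and 0 and 3 reads in cDNA Day4, and Hoxaas2, which overlaps Hoxa3, had 1 and 15 reads and 1 and 22 reads. The part of strand and of ambiguous reads in the platform differences was not tested.

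The last comparison, the interaction of platform and state over all 8 libraries, asks whether the change with differentiation itself differed between the platforms. It called 0 of the 9 HoxA genes with DESeq2, where 0.0116% of the 17267 genes fitted were called, and 0 with edgeR, where 0.0811% were. At an unadjusted p of 0.05, 0 of the 9 passed with either tool, against 161 genes (0.932%) with DESeq2 and 460 (2.66%) with edgeR. The fitted differences, cDNA change minus Direct RNA change, were -2.23 (SE 2.16) for Hoxa5, 1.73 (SE 2.26) for Hoxa7 and 0.33 (SE 2.06) for Hoxa4. With 0 to 4 Undiff reads per gene and library the standard errors were above 2 log2 units for every member, so a platform difference in the change was not detectable at this depth, also for Hoxa7, which was called in cDNA and not in Direct RNA.

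Within the cluster, the make-up of the Day4 reads differed between the platforms more than between replicates. Hoxa4 and Hoxa5 together took 79.7% (95% Wilson interval 73.1 to 84.9) and 87.4% (84.8 to 89.6) of the HoxA reads in Direct RNA, and 48.6% (42.8 to 54.4) and 42.2% (37.8 to 46.7) in cDNA. Hoxa7 took 1.13% (0.31 to 4.03) and 0% in Direct RNA, where 0 of 731 reads allow up to 0.523% by the same interval, and 18.7% (14.6 to 23.6) and 20.7% (17.3 to 24.5) in cDNA. The share of Hoxa2 was 7.91% and 5.34% in Direct RNA, whereas the cDNA replicates gave 17.6% and 20.7%. The share of Hoxa10 was 2.82% and 1.37% in Direct RNA, whereas the cDNA replicates gave 8.45% and 10.1%. For each of these shares both Direct RNA replicates lay on one side of both cDNA replicates. How many of all genes separate in this way was not counted, so the separation is no result about the cluster. The shares of Hoxa9 overlapped between the platforms, at 2.82% and 1.37% in Direct RNA against 1.41% and 3.38% in cDNA. These shares are free of the scaling between libraries but depend on each other, since a lower share of Hoxa4 and Hoxa5 raises the others. Hoxa2, for example, had a higher share in cDNA while its mean level there was 42.6 CPM, against 51.1 CPM in Direct RNA. The intervals of the shares cover counting error only.

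**Figure D4:**
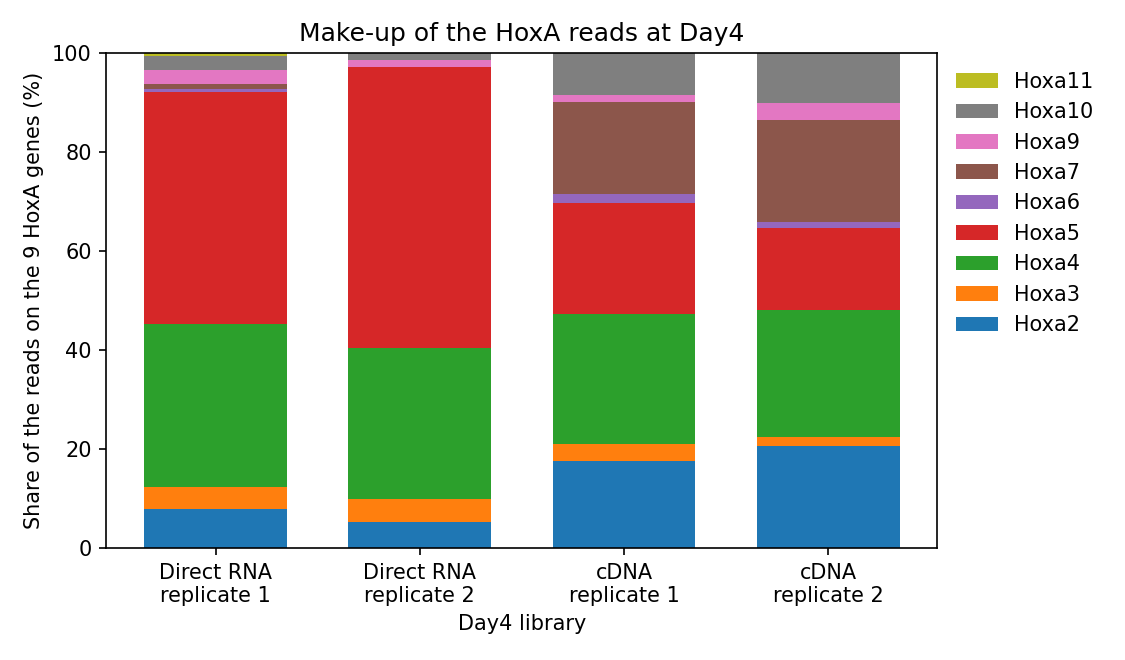
Share (%) of the reads on the 9 HoxA genes taken by each gene in the 4 Day4 libraries, stacked from Hoxa2 at the bottom to Hoxa11 at the top, over 177, 731, 284 and 474 reads. Hoxa5 (red) falls from 46.9% and 56.8% in Direct RNA to 22.5% and 16.5% in cDNA, and Hoxa7 (brown) is visible mainly in cDNA.

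Other genes of the locus were read alongside. Among the neighbours and noncoding genes described here, Hotairm1 rose and Snx10 fell on both platforms, and Halr1, a noncoding RNA, fell in cDNA (-3.11, SE 0.65, DESeq2 adjusted p = 6.6e-05) but not by DESeq2 in Direct RNA (-2.47, SE 1.10, 0.15; edgeR adjusted p = 0.0026). Hotairm1, a noncoding RNA of the 3' part of the locus, went from 0 and 1 reads to 43 and 294 reads in Direct RNA (log2 fold change 7.00, SE 0.95, DESeq2 adjusted p = 2.7e-11) and from 3 and 7 to 533 and 611 reads in cDNA (6.19, SE 0.60, 3.2e-22). Snx10, a neighbour outside the Hox genes, fell by 1.94 (SE 0.67, DESeq2 adjusted p = 0.036) and by 1.60 (SE 0.53, 0.028). Hoxa13, the gene at the 5' end, had 0 and 4 reads in Direct RNA Day4 and 0 reads in the other 6 libraries, so its low level resembles that of Hoxa11.

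Genes of the other clusters rose in the same libraries. In Direct RNA, 6 of 10 HoxB, 5 of 9 HoxC and 3 of 9 HoxD genes rose, and in cDNA 8 of 10, 5 of 9 and 2 of 9, with 0 lower in any cluster, where 9.54% and 8.69% of all genes were called higher. As in HoxA, these are all the genes that reached the mean count of 5, so the counts are no evidence about the clusters. The Day4 platform difference can be read beside that of the paralogues of Hoxa4 and Hoxa5. The log2 fold change, cDNA minus Direct RNA, was -0.79 for Hoxb4, -0.18 for Hoxc4 and -1.35 for Hoxd4 (DESeq2 adjusted p = 0.32), against -1.36 for Hoxa4, so that the value of Hoxd4 was close to that of Hoxa4 although it did not pass. It was 1.61 for Hoxb5 (DESeq2 adjusted p = 0.021) and -0.53 for Hoxc5, against -2.46 for Hoxa5. Hoxb5 was thus called higher in cDNA and its paralogue Hoxa5 lower, although a difference between genes was not tested. Summed over the genes listed, HoxA held 808 ± 259 CPM (SD, n = 2) in Direct RNA Day4 and 222 ± 9 CPM in cDNA Day4, HoxB 690 ± 232 and 463 ± 31.5, HoxC 744 ± 49.9 and 359 ± 8.17, and HoxD 138 ± 13.7 and 96.2 ± 16.3.

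Among the partners and regulators of Hox genes, part of the cofactor and RA genes rose and part of the Polycomb and trithorax genes fell. Of 9 genes for the cofactors Meis, Pbx and Pknox, 5 rose on each platform, among them Meis2 (log2 fold change 6.91, SE 0.93, in Direct RNA and 7.62, SE 1.12, in cDNA), Meis1 (5.43, SE 1.01, and 6.09, SE 0.59) and Pbx2 (2.28, SE 0.40, and 2.32, SE 0.57). The share of all genes that DESeq2 called higher was 9.54% for Direct RNA and 8.69% for cDNA, which is also the background of the RA pathway. Of 18 RA pathway genes, 11 rose in Direct RNA and 8 in cDNA, with 0 lower by DESeq2 (11 and 10 higher by edgeR, and 1, the receptor Rarg, lower in cDNA). These include the RA receptor Rarb (8.07, SE 1.04, and 6.85, SE 0.97), the retinal reductase Dhrs3 (6.31, SE 0.86, and 7.87, SE 0.51) and the RA-degrading enzymes Cyp26b1 (7.54, SE 0.91, and 6.90, SE 0.97) and Cyp26a1 (6.48, SE 1.12, and 5.93, SE 1.04). Of 17 Polycomb and trithorax genes DESeq2 called 0 higher, and 6 fell in Direct RNA and 4 in cDNA (edgeR called 2 and 3 higher and 6 and 5 lower), where 7.67% and 9.24% of all genes were called lower by DESeq2 and 18.7% and 17.1% higher and 15.1% and 15.5% lower by edgeR, among them the PRC1 gene Cbx7 (-3.45, SE 0.65, and -3.08, SE 0.81), Ash2l, a core subunit of the trithorax-group methyltransferases (-1.64, SE 0.34, and -2.73, SE 0.40), and the PRC2 genes Eed (-2.30, SE 0.41, and -2.05, SE 0.42) and Jarid2 (-2.00, SE 0.36, and -1.72, SE 0.41). Wdr5, a trithorax-side partner of Ash2l, fell in Direct RNA (-1.73, SE 0.42, DESeq2 adjusted p = 0.001) and did not pass in cDNA (-0.96, SE 0.53, DESeq2 adjusted p = 0.3). Of the Cdx genes, activators of the middle Hox genes in the embryo, 0 of 3 reached a mean count of 5, and Cdx2 had 0 and 9 reads in Direct RNA Day4 and 0 and 1 reads in cDNA Day4.

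By DESeq2, 4 of 6 endoderm and 3 of 8 mesoderm markers rose in Direct RNA and 3 of 6 and 4 of 8 in cDNA. Of all genes, 9.54% and 8.69% were called higher and 7.67% and 9.24% lower, and the markers that rose are all that reached the mean count of 5, save 1 endoderm marker in cDNA. DESeq2 called 0 of 10 neural and 0 of 4 neural crest markers higher, but only 2 and 1 of them in Direct RNA and 4 and 0 in cDNA reached the mean count that a call needs. The 10 pluripotency markers all fell on both platforms, with summed levels of 11715 to 14018 CPM in Direct RNA Undiff and 123 to 550 CPM in Day4, and of 21596 to 24702 and 86.5 to 951 CPM in cDNA. The 6 endoderm markers summed to 5.51 to 8.61 CPM in Direct RNA Undiff and 626 to 931 CPM in Day4, and to 0 to 0.479 and 181 to 197 CPM in cDNA, and Gata4, Gata6 and Ttr rose on both platforms. The 8 mesoderm markers summed to 6.61 to 11.5 and 519 to 540 CPM in Direct RNA and to 3.35 to 4.22 and 78.1 to 151 CPM in cDNA, where Foxc2, Twist1 and Tbx5 rose on both platforms while T, Mesp1 and Pax1 were at 0 in Day4. The 10 neural markers summed to 158 to 181 CPM in Direct RNA Undiff and 60 to 99 CPM in Day4, and to 73.8 to 176 and 59.2 to 69.8 CPM in cDNA, with Olig2 at 0 in all 8 libraries. The direction was the reverse without Tubb3, when the other 9 summed to 17.2 to 30.9 CPM in Direct RNA Undiff and 49.4 to 84.1 CPM in Day4, and to 4.22 to 13.9 and 30.3 to 47.7 CPM in cDNA. Tubb3 fell on both platforms (-3.37, SE 0.61, and -2.42, SE 0.53), and edgeR called 1 of the 10 higher in Direct RNA and 2 in cDNA. The edgeR shares over all genes were 18.7% and 17.1%. The 4 neural crest markers summed to 40.2 to 40.8 CPM in Direct RNA Undiff and 3.53 to 4.07 CPM in Day4, where Foxd3 fell (-4.93, SE 1.23, DESeq2 adjusted p = 0.0012), and to 1.05 to 3.83 and 6.07 to 8.66 CPM in cDNA, with Sox10 at 0 in Day4. The part of cell type make-up in the HoxA changes was not tested.

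Outside the Hox clusters, the genes whose levels ran closest to the summed HoxA level over the 8 libraries, by Euclidean distance on log2(CPM + 1) among 24382 genes, were Nrep (distance 3.62), Mmp2 (3.64), Gas1 (3.64), Meis2 (3.76) and Wnt4 (3.91). Mmp2 encodes a matrix metalloproteinase, Gas1 a hedgehog-binding surface protein and Wnt4 a secreted signal. Among single genes, the one nearest to Hoxa4 was Meis2 (distance 1.70), to Hoxa5 it was Cdh11, a mesenchymal cadherin (1.09), and to Hoxa2 it was the noncoding gene 1010001N08Rik (0.43). Cdh11 had 0 reads in all 4 Undiff libraries, 395 and 301 CPM in Direct RNA Day4 and 36.4 and 42.4 CPM in cDNA Day4. It was picked by these same values, so its higher level in Direct RNA is no separate likeness to Hoxa5. The points share their libraries and depth, and the distances are descriptions with no test.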

How the data were processed

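Polyadenylated RNA of R1 ESCs in 2 states was sequenced on 2 ONT platforms, with 2 replicates in each of 4 groups. The authors deposited raw counts of reads for every gene symbol. They had aligned the reads to mm10 with minimap2 and counted them on the iGenomes UCSC annotation with htseq-count, and applied no normalization. Direct RNA reads were counted by strand. Each file lists 24421 genes and 5 counters of unassigned reads, which were left out, and the counters for no feature, ambiguous, low-quality, unaligned and multiply aligned reads together were 38.1% to 48.2% of all reads in 7 libraries and 61.7% in cDNA Undiff replicate 2. Replicates were compared by a chi-square over genes, to look for a library deposited more than once. The statistic per degree of freedom was 2.68 to 14.9, so no pair agreed within sampling noise.

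Groups and replicate numbers came from the labels. DESeq2 1.42.0 in R 4.3.3 was run on all genes with the settings of the study's methods (shrunken fold changes, no Cook's cutoff, no independent filtering). The platform by state interaction was fitted over 8 libraries without shrinkage, with the adjusted p-value as its threshold. Alternatives were edgeR 4.0.16 (quasi-likelihood, TMM factors), library totals as size factors, a filter of 10 reads, no shrinkage, a replicate block and leaving out each library. The fits were tested on simulated data. Same-numbered libraries were checked by the correlation of replicate differences over 1395 genes, which was 0.214 between states in Direct RNA, 0.500 in cDNA, 0.124 between platforms in Undiff and -0.416 in Day4. The study describes 2 separate cultures per state without stating which culture served which library, so the blocked fit is given beside the platform result.

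Wilson and counting intervals are at 95% and cover counting error only, since PCR reads are not independent molecules. Coordinates, lengths and exon overlaps came from GENCODE vM21. Named genes are all 9 members, the nearest genes and, from each list, genes among the 4 with the largest mean log2 fold change of those called on both platforms. The results of some listed genes are not reported here. A few other listed genes (Hoxa13, Wdr5, Hoxd4, Halr1, Hoxaas2, Hoxaas3, Hoxa11os, Cdx2, Rarg, Foxd3 and the markers at 0) were named after their values were seen. The members and lists were chosen with earlier results of these data known. Python 3 with pandas and matplotlib served for the tables and plots.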

Additional observations from a re-analysis of the deposited data

How the results depend on the processing

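Between states, the count of HoxA genes called higher was 4 (Direct RNA) and 5 (cDNA) with edgeR, with library totals as size factors, with the filter of 10 reads, with independent filtering and without shrinkage. Leaving out each library in turn gave 2 to 4 called genes in Direct RNA and 4 to 5 in cDNA. With a replicate block, 3 were called in Direct RNA (Hoxa5 lost, adjusted p = 0.882, and 0.165 without shrinkage) and 3 in cDNA (Hoxa4 and Hoxa5 lost, adjusted p = 0.73 and 0.734, and 0.235 and 0.281 without shrinkage), and the block without shrinkage, added after seeing the data, also left 3 in cDNA. The unshrunken log2 fold changes with and without the block were 10.26 and 10.27 for Hoxa5 in Direct RNA, and 8.47 and 8.45 for Hoxa4 and 8.03 and 8.05 for Hoxa5 in cDNA, while the shrunken blocked values were 1.49, 1.75 and 1.74. Between states the libraries share only a number, and the block took the calls over all genes from 920 higher and 740 lower to 455 and 388 in Direct RNA and from 893 and 949 to 597 and 778 in cDNA. The cause was not tested. For the platforms at Day4, leaving out each library gave 0 to 3 called genes, 0 to 1 of them higher and 0 to 2 lower in cDNA. The replicate block left 1 lower with and 1 without shrinkage, and a block with crossed Day4 numbers, added after seeing the data, gave 1 higher and 2 lower. The value of Hoxa2 turned to -0.26 with library totals. The interaction called 0 HoxA genes under each alternative. Leaving out each library turned its sign for Hoxa4 (-1.69 to 2.04; negative without Direct RNA Undiff replicate 1, -1.69, or cDNA Undiff replicate 2, -0.40), Hoxa10 (-1.28 to 2.46; negative without Direct RNA Undiff replicate 1) and Hoxa9 (-1.21 to 0.19; positive without Direct RNA Undiff replicate 2, 0.18, or cDNA Undiff replicate 1, 0.19). The summed HoxA level in cDNA Day4 moved from 222 to 269 CPM with TMM scaling. Over all genes, edgeR called 1808 higher and 1459 lower in Direct RNA, 1759 and 1596 in cDNA, and 2681 and 2469 between platforms, against 1889 and 1431 with DESeq2. Depth limits Hoxa6, Hoxa9 and Hoxa11, which had 1 to 20 reads per group at Day4 or none.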
